A study of Mus musculus with 6 samples.

Results

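The 6 genes described here are Cpt1b, Acadl, Acadm, Hadh, Ppara and Ucp3, the fatty acid oxidation genes and their regulator on a muscle expression array. They were chosen by symbol in the platform annotation, which named 203 genes on the array, and each of the 6 had 1 probe among the 223 in the deposited table. The samples were soleus muscles, a postural hindlimb muscle, of C57Bl/6 mice titled as wild type and reloaded for 1 day. There were 6 arrays, 1 per sample, in a single group, replicates 1 to 6, and no unloaded, untouched or mutant muscle was analysed here. No age, sex or added agent was given, and the labels did not say that the samples came from separate animals. The spread between samples can therefore include technical differences, and p-values measure only that spread. Bulk RNA was taken from cryosections, so fewer cells of a type and less RNA per cell cannot be told apart.

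Muscle burns long-chain fatty acids in its mitochondria. A carnitine palmitoyltransferase couples the activated fatty acid to carnitine at the outer membrane, after which beta-oxidation removes acetyl units in a repeated cycle. Acyl-CoA dehydrogenases of different chain-length preference carry out the opening step, and a 3-hydroxyacyl-CoA dehydrogenase carries out a later oxidation. The nuclear receptor PPAR alpha binds fatty acids and, with its partner RXR, activates many genes of this pathway. Soleus is rich in slow, oxidative fibres that rely on it.

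Arrays differed widely in overall signal before any scaling. The summed deposited intensity was 165.3 on replicate 1, 13.8 on replicate 6 and between 35.2 and 41.3 on the other 4 arrays. Unless another scale is named, levels below are log2 intensities centred on the median of the 175 probes that were above 0 on all 6 arrays, so a level of 0 is the median kept probe of that array. A level depends on the probe as well as on the transcript, so levels are compared between arrays and not between genes. The size of the most negative deposited value on an array served as its noise bound, between 0.0011 and 0.0144. All 7 soleus fibre markers on the array (Myh7, Myh2, Myh1, Myh4, Des, Ttn and Mb) exceeded the noise bound on all 6 arrays, as did the 5 endothelial markers. Of the adipocyte markers, Fabp4 and Pparg exceeded it on all 6 arrays and Lipe on 1. The myeloid marker Il1b was above 0 on 0 of 6.

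The promoters of 5 of the 6 genes were found in the RefSeq table of build GRCm38.p6, as windows of 300 bases running from 250 before to 50 after the start. Cpt1b had no entry there. The windows were searched on both strands for AGGTCA, the half-site that PPAR alpha and related receptors bind, for the direct repeat AGGTCANAGGTCA, and for the GC box GGGCGG. The half-site occurred at 2 places in the Ucp3 window, at bases 102 and 207, and at 1 place in the Acadm window, at base 2. It occurred at 0 places in those of Acadl, Hadh and Ppara. Of 32851 promoter windows of this length, 16.3% held at least 1 half-site and 1.81% held at least 2. The direct repeat occurred in 0 of the 5 windows and in 0.0396% of all windows. GC boxes numbered 4 in Acadl, 4 in Hadh and 2 in Ppara, against 0 in Acadm and Ucp3. Of all windows, 35.7% held at least 1 GC box and 19.5% at least 2. The share of G and C bases was 70.3% in Acadl, 63% in Hadh, 74.7% in Ppara, 62.3% in Acadm and 55% in Ucp3. Its median over all windows was 52.7%. A match is a run of letters and not a shown binding site, and a window without a match says nothing of the factor.

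The windows of Acadl (chr1:66863260-66863559, minus strand), Acadm (chr3:153944594-153944893, minus strand) and Ucp3 (chr7:100472741-100473040, plus strand) are printed because the first pair encode sister enzymes whose levels had the widest spread between arrays, while Ucp3 held the most half-sites of the 5 windows. Capitals mark the half-site or its reverse complement TGACCT in Acadm and Ucp3, and the GC box in its reverse complement CCGCCC in Acadl.
Acadl: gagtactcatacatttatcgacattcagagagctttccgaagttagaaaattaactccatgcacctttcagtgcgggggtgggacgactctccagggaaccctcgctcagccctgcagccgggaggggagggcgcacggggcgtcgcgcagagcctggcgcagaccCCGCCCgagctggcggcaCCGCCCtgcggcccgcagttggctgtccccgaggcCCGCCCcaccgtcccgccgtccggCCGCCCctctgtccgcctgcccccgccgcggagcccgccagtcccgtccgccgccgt
Acadm: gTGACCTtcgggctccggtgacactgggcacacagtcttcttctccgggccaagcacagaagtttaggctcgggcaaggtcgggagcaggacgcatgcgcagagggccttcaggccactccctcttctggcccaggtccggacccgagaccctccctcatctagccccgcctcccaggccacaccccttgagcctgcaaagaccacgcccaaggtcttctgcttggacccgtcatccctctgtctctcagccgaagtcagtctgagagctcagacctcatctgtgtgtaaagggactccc
Ucp3: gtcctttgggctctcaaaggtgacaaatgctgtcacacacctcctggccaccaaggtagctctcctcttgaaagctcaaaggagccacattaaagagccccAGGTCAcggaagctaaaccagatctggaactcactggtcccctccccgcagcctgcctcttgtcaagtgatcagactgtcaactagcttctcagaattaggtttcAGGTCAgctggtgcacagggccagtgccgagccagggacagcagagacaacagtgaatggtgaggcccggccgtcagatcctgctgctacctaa

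Entry of fatty acids into mitochondria was represented by Cpt1b (Entrez gene 12895), the muscle form of carnitine palmitoyltransferase 1. Its level was 0.64, 0.15, 0.51, 0.39, -0.15 and -0.50 on replicates 1 to 6, a mean of 0.17 ± 0.43 (SD, n = 6). Replicate 1 was highest and replicate 6 lowest, with a 2.20-fold range between them. In deposited units Cpt1b went from 0.0070 on replicate 6 to 0.1006 on replicate 1 and was at least 5.43 times the noise bound on every array. Allowing each array an error as large as its bound left a range of 1.63-fold (the noise allowance below).

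The opening step of beta-oxidation showed the widest differences between samples. Acadl (Entrez gene 11363), the long-chain acyl-CoA dehydrogenase, had levels of 2.09, 1.37, 1.91, 1.12, 0.62 and 0.28 on replicates 1 to 6 (mean 1.23 ± 0.71, SD, n = 6). It was again highest on replicate 1 and lowest on replicate 6, a 3.52-fold range that was 3.05-fold after the noise allowance. Acadm (Entrez gene 11364), the medium-chain acyl-CoA dehydrogenase, had levels of 0.43, 0.10, -0.07, -0.20, -0.61 and -2.17 (mean -0.42 ± 0.92, SD, n = 6). Its 6.08-fold range came mostly from replicate 6: over replicates 2 to 5 the range was 1.63-fold, and the SD over the 5 arrays without replicate 6 was 0.38. On replicate 6 the deposited Acadm intensity was 0.0022, 2.00 times the noise bound, and the range was 3.38-fold after the noise allowance.

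Hadh (Entrez gene 15107), the 3-hydroxyacyl-CoA dehydrogenase of shorter chains, differed little between samples. Its level was 1.92, 1.95, 2.63, 2.00, 2.36 and 2.10 on replicates 1 to 6 (mean 2.16 ± 0.28, SD, n = 6). Replicate 3 was highest and replicate 1, the highest array for Cpt1b, Acadl and Acadm, was lowest, a 1.64-fold range. Hadh was at least 17.0 times the noise bound on every array, and the noise allowance left a range of 1.51-fold.

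The regulator Ppara (Entrez gene 19013) encodes PPAR alpha. Its level was 0.27, -0.22, -0.73, -0.08, -0.36 and -0.07 on replicates 1 to 6 (mean -0.20 ± 0.33, SD, n = 6). It was highest on replicate 1 and lowest on replicate 3, where Hadh was highest. The 1.99-fold range came down to 1.27-fold after the noise allowance, because the gene was only 3.58 times the noise bound on replicate 3.

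Ucp3 (Entrez gene 22229), a mitochondrial inner membrane carrier of skeletal muscle whose transcript is known to follow fatty acid supply, differed least between arrays on the median-centred scale. It stood at 0.72, 0.62, 0.81, 0.60, 0.20 and 0.70 on replicates 1 to 6 (mean 0.61 ± 0.21, SD, n = 6). Replicate 5 alone was low, and the SD without it was 0.084. Its 1.53-fold range was 1.21-fold after the noise allowance.

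**Figure D1:**
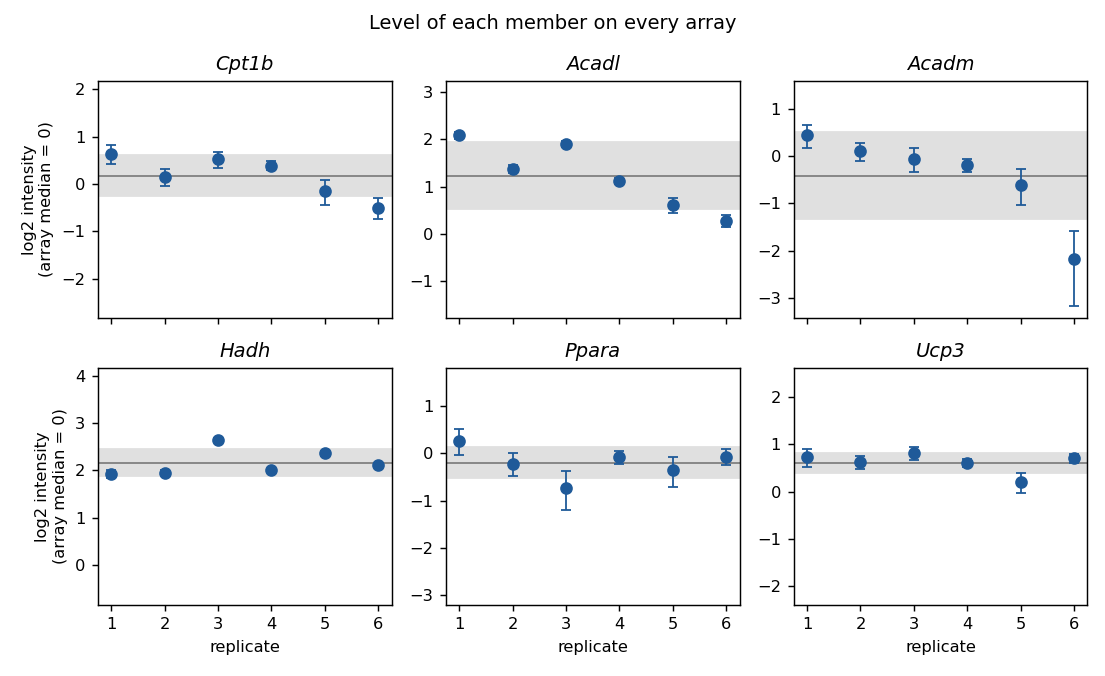
Level of each gene (log2 intensity, array median at 0) on replicates 1 to 6 of reloaded soleus. Points are single arrays, bars allow an error as large as the array's noise bound, the line is the mean, the grey band is 1 SD, and all panels span the same number of log2 units. Acadl and Acadm spread most, with Acadm lowest on replicate 6 at -2.17, while Hadh and Ucp3 stay close to their means.

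All 6 genes exceeded the noise bound on all 6 arrays, as did 58.3% of all probes. The SD was under 0.5 log2 units for 4 of the 6 genes (Cpt1b, Hadh, Ppara and Ucp3), against 29% of the 162 named genes that were above 0 on all arrays. The median SD was 0.38 for the 6 genes and 0.64 for the 162. Unlike the 6, the 162 included genes at or under the noise bound on some arrays. With only probes above the bound on all 6 arrays kept, the medians were 0.39 for the 6 genes and 0.57 for all named genes kept. Of those 162, 3.11% had a smaller SD than Ucp3, 6.21% a smaller one than Hadh and 72.7% a smaller one than Acadm. Cpt1b, Acadl and Acadm were lowest on replicate 6, where 46.9% of named genes had their lowest level. Cpt1b, Acadl, Acadm and Ppara were highest on replicate 1, as were 29% of named genes. Without replicates 1 and 6 the median SD was 0.30 for the 6 genes and 0.46 for all named genes. The order of the genes changed with it: Acadl then had the largest SD of the 6, 0.54, and Acadm stood at 0.30.

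The lower spread was seen where arrays were centred or quantile-normalized, with a median SD of 0.36 for the 6 genes and 0.63 for all named genes in the quantile case. In deposited units the median SD was 1.20 for the 6 genes and 1.15 for all named genes. After scaling to the 28S ribosomal RNA probe, whose deposited values are coarser than the others, it was 0.97 for the 6 genes and 1.00 for all. Under each of these scalings and after quantile normalization the order Acadm, Acadl, Cpt1b from most to least variable was the same, and Hadh, Ppara and Ucp3 varied less than these 3. The least variable gene changed with the scaling: it was Ucp3 with centred arrays, but Hadh after quantile normalization (SD 0.21, against 0.27 for Ucp3), in deposited units (0.87 against 0.98) and after scaling to 28S (0.60 against 0.75).

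**Figure D2:**
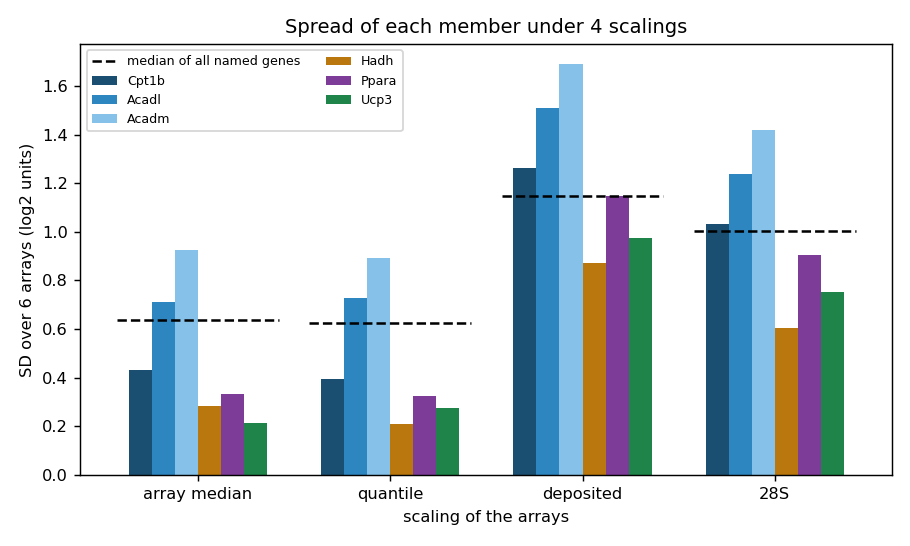
SD over 6 arrays (log2 units) of each gene under 4 scalings of the arrays, as bars from 0. Dashed lines give the median SD of all named genes. Acadm is highest in each group of bars, and the median of all genes moves from 0.64 with centred arrays to 1.15 in deposited units.

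A ratio of 2 genes on the same array does not change with a factor shared by all probes of that array. It can change with background subtraction, whose method is not known here. Its mean depends on the probes, so only its differences between arrays are read. The ratios of Cpt1b, Acadl and Acadm to Hadh and to Ucp3 were each highest on replicate 1 and lowest on replicate 6. No other pair had both extremes there. These arrays had the largest and the smallest summed intensity, and the part of array signal in the ratios was not tested. Over the 15 pairs of the 6 genes, the SD of the log2 ratio had a median of 0.57 and ran from 0.34 to 0.99. Over all 13041 pairs of named genes the median was 0.93, with the middle 50% between 0.60 and 1.38, and 13 of the 15 pairs lay below that median. Those pairs of named genes include genes at or under the noise bound on some arrays, which the 6 genes were not. Without replicates 1 and 6 the median over the 15 pairs was 0.39.

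Over all 6 arrays Cpt1b and Acadl stayed closest to each other, while Cpt1b over Acadm had an SD of 0.57. The closest pair changed with the arrays kept. Without replicate 6 the SD was 0.34 for Cpt1b over Acadl and 0.15 for Cpt1b over Ucp3. The log2 ratio of Cpt1b to Acadl was -1.45, -1.22, -1.40, -0.73, -0.77 and -0.78 on replicates 1 to 6, an SD of 0.34, and 4.65% of all gene pairs had a smaller one. Replicates 1 to 3 were lower than replicates 4 to 6, within a 1.65-fold range that was 1.23-fold after the noise allowance. The ratio of the long-chain to the medium-chain dehydrogenase, Acadl over Acadm, was 1.66, 1.27, 1.98, 1.32, 1.22 and 2.45 (SD 0.49). Replicate 6 was highest, but its lead over replicate 5, the lowest array, was within the noise allowance. Replicates 3 and 6 lay above replicates 2 and 4 beyond that allowance.

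The balance of the opening dehydrogenases to the later dehydrogenase did differ between arrays beyond the noise bound. That bound leaves out errors that grow with the signal, which 1 array per sample cannot measure. The log2 ratio of Acadl to Hadh was 0.17, -0.58, -0.72, -0.88, -1.74 and -1.82 on replicates 1 to 6 (SD 0.75). Replicate 1 was the highest and replicates 5 and 6 were the lowest, a 3.99-fold range that was 3.19-fold after the noise allowance. Acadm over Hadh was -1.48, -1.84, -2.70, -2.20, -2.96 and -4.27 (SD 0.99). Replicate 6 lay below each other array even with noise allowed on all of them, and the 6.91-fold range was 3.54-fold after that allowance. Over replicates 2 to 5 the SD was 0.52 for Acadl over Hadh and 0.50 for Acadm over Hadh.

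Relative to the regulator, the opening dehydrogenases also shifted. Acadl over Ppara was 1.83, 1.59, 2.64, 1.20, 0.97 and 0.35 on replicates 1 to 6, a 4.88-fold range, or 2.94-fold after the noise allowance. Replicate 3 was highest, where Ppara itself was lowest. Hadh over Ppara was 1.65, 2.16, 3.36, 2.08, 2.71 and 2.18 (SD 0.60), also highest on replicate 3 and lowest on replicate 1. Ppara over Ucp3 was more even, at -0.46, -0.84, -1.54, -0.68, -0.56 and -0.78 (SD 0.38), with replicate 3 lowest and a range of 1.07-fold after the noise allowance. Hadh over Ucp3 had an SD of 0.37.

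Relative to Ucp3, Cpt1b, Acadl and Acadm were each lowest on replicate 6, beyond the noise bound of each other array. Acadm over Ucp3 was -0.29, -0.52, -0.88, -0.80, -0.81 and -2.87 on replicates 1 to 6, so replicate 6 stood far below the other 5. Its SD was 0.93 over all 6 arrays and 0.16 over replicates 2 to 5. Cpt1b over Ucp3 was -0.09, -0.48, -0.30, -0.21, -0.35 and -1.20, with an SD of 0.40 over all 6 and 0.11 over replicates 2 to 5.

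**Figure D3:**
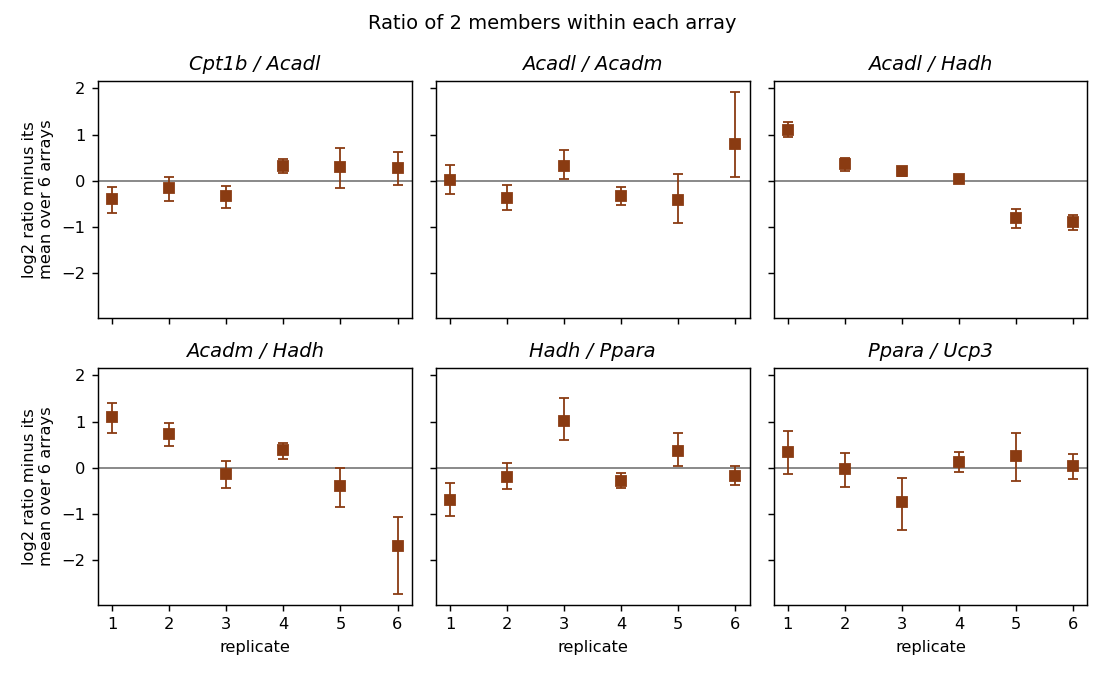
Log2 ratio of 2 genes within each array, minus its mean over the 6 arrays, for 6 of the 15 pairs on replicates 1 to 6. Squares are single arrays and bars allow an error as large as the noise bound in both genes. Acadl over Hadh is highest on replicate 1 and Acadm over Hadh is lowest on replicate 6, while for Acadl over Acadm the bars of replicates 3 and 6 lie above those of replicates 2 and 4.

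Over the 6 arrays r was highest among Cpt1b, Acadl and Acadm and lowest between Hadh and Ppara, though none of the 15 pairs passed after adjustment. An unadjusted exact two-sided permutation p under 0.05 was reached by 4 of the 15 pairs with Pearson's r, against 19.9% of all gene pairs. For 3 of the 4 r was positive (11.5% of all pairs) and for 1 it was negative (8.44%). After Benjamini-Hochberg adjustment over all 13041 pairs 0 of the 15 passed, and 0% of all pairs did, the smallest adjusted p being 0.12. With Spearman's rho 2 of the 15 had an unadjusted p under 0.05 (13.7% of all pairs), and 0 passed after adjustment.

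For Cpt1b and Acadl, r was 0.94 and rho was 0.94. The exact permutation test gave p = 0.00556 for r and 0.0167 for rho, or 0.136 and 0.191 once adjusted. Without replicates 5 and 6, the arrays farthest from the median of Cpt1b, r was 0.75. For Acadl and Acadm, r was 0.85 and rho was 0.94, with the same unadjusted and adjusted p-values, and r was 0.78 when replicates 1 and 6 were left out. For Cpt1b and Acadm, r was 0.89 (exact permutation p = 0.0111, 0.154 after adjustment) and rho was 0.83 (0.0583 and 0.298). That last relation depended on replicates 5 and 6: leaving them out gave r = 0.38. Of all gene pairs, 2.32% had a higher r than Cpt1b with Acadl and 8.39% a higher one than Acadl with Acadm.

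For Hadh and Ppara, r was -0.89 (exact permutation p = 0.0111, 0.154 after adjustment) and rho was -0.77 (0.103 and 0.377). The relation depended on which arrays were kept. Without replicates 3 and 5, the arrays farthest from the median of Hadh, r came to -0.37, and Hadh differed little over the arrays left. Without replicates 1 and 6 r was -0.94. With all arrays r turned to 0.86 in deposited units and to 0.76 after scaling to 28S. On both of these scales r was positive for every pair of the 6 genes. An unadjusted exact permutation p under 0.05 was reached by 42.8% and 35.9% of all gene pairs there, against 19.9% with centred arrays. Leaving out single arrays, with the arrays centred, kept r of Hadh and Ppara between -0.97 and -0.70. Of all gene pairs, 3.90% had a lower r. Ppara showed r of 0.04 with Cpt1b, 0.00 with Acadl, 0.03 with Acadm and 0.06 with Ucp3, with exact permutation p from 0.881 to 1 and adjusted p from 0.94 to 1. With 6 arrays such values do not show that the regulator and these genes were unrelated.

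**Figure D4:**
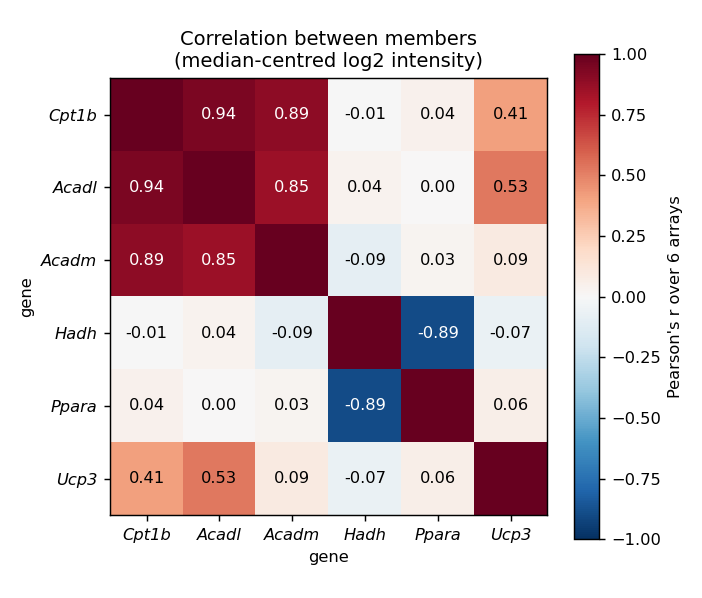
Pearson's r between each pair of the 6 genes over 6 arrays, on median-centred log2 intensities (colour scale from -1 to 1). Cpt1b, Acadl and Acadm form a block of r from 0.85 to 0.94, Hadh and Ppara stand at -0.89, and Ppara is near 0 with the other 4.

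The fibre markers of the muscle, like Cpt1b, Acadl and Acadm, were lowest on replicates 5 and 6. The summed level of the 7 fibre markers, as log2 over the array median, was 8.86, 8.35, 8.73, 8.51, 7.77 and 7.48 on replicates 1 to 6, with replicate 1 highest. That of the 5 endothelial markers was 2.88, 3.03, 3.13, 3.44, 3.84 and 3.42, with replicate 5 highest. Of these 5 only Pecam1 was itself highest there. Kdr and Flt1 were highest on replicate 6, and Cdh5 and Tek on replicate 4. The part of the fibre and endothelial markers in the differences of the oxidation genes was not tested. Divided by the summed fibre markers of the same array, Cpt1b had an SD of 0.13 and a 1.23-fold range, and of the 154 other named genes outside the marker list 0% had a smaller SD. Acadl had an SD of 0.24, with 3.90% of the others below it. Acadm kept an SD of 0.51 and was still lowest on replicate 6, by 0.95 below its mean ratio. For Hadh and Ppara the SD against fibre markers was 0.63, at the median of all these genes, and for Ucp3 it was 0.48. Hadh, Ppara and Ucp3 were each highest on replicate 6 on this scale, at 0.74, 0.93 and 0.89 above their mean ratio. This comparison was chosen after the data had been seen.

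For each gene, the 3 nearest others were those with the smallest SD of the log2 ratio over the 6 arrays, a measure free of array scale. A small SD of this kind can also come from little spread in both genes, without a shared pattern. For Cpt1b they were Itgav (an integrin chain, SD 0.13, at or under the noise bound on 3 of 6 arrays), Mb (the oxygen store myoglobin, 0.15) and Des (the intermediate filament desmin, 0.16). For Acadl they were Itgb1 (an integrin chain, 0.12), Pdha1 (a subunit of pyruvate dehydrogenase, 0.19) and Myf6 (a myogenic factor of mature fibres, 0.20). Acadm was nearest to Timp3, an inhibitor of matrix proteases, at 0.26, with Pdgfb, a growth factor chain, at 0.28 and Ywhaz, a 14-3-3 protein, at 0.33. The median SD against all named genes was 0.57 for Cpt1b, 0.75 for Acadl and 0.87 for Acadm.

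Hadh, Ppara and Ucp3 had other neighbours. Hadh was nearest to the angiotensinogen gene Agt (SD 0.19), the enolase Eno2 (0.22) and the growth factor receptor Pdgfrb (0.22). Ppara was nearest to Ace, the angiotensin-converting enzyme (0.19), the AP-1 subunit Jun (0.21) and the growth factor Vegfb (0.35). Ucp3 was nearest to the integrin chain Itgb5 (0.19), Jun (0.20) and the glycolytic kinase Pgk1 (0.24). For Ucp3 r with these genes was only 0.48, 0.43 and 0.43. It was 0.82, 0.88 and 0.51 for Ppara with its neighbours, and 0.84, 0.74 and 0.65 for Hadh with its own. Against all named genes the median SD was 0.69 for Hadh, 0.78 for Ppara and 0.66 for Ucp3. Over all 6 arrays the SD between Cpt1b and Acadl, the closest pair of the 6 genes, was 0.34. Each of the 2 therefore had at least 3 closer genes outside the oxidation pathway genes chosen here.

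Other genes of fat use, from lists chosen with earlier results known, are given by their counts and by their ratios to the 6 genes. Of 18 genes of fatty acid uptake and storage, 7 were on the array and 6 were above 0 on all arrays, 3 of them with an SD under 0.5. Fabp3, the muscle fatty acid carrier, had an SD of 0.27, and Cd36, a fatty acid transporter of the membrane, 0.33. Fabp4, the fatty acid carrier of adipocytes and endothelium, had an SD of 0.58 and a log2 ratio SD of 0.31 to Acadl and 0.40 to Acadm, against 0.68 to Hadh. Pparg, the adipocyte relative of Ppara, had an SD of 1.24. It was highest on replicate 6, at 1.80, where Acadm was lowest, and its log2 ratio SD to Acadm was 2.09. Lipe, the hormone-sensitive lipase, was above 0 on 2 of 6 arrays.

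Of 10 regulators of oxidation only Ppara and Tfam were on the array. Tfam, a mitochondrial transcription factor, exceeded the noise bound on 3 of 6 arrays, so its pattern is not set beside that of Ppara. Of 13 genes of uncoupling and energy use, 5 were on the array, all above the noise bound on every array, and 2 of the 5 (Ucp3 and Mb) had an SD under 0.5. The cytochrome oxidase subunits Cox4i1 and Cox5b had SDs of 0.76 and 0.79 and were lowest on replicate 6, as were Cpt1b, Acadl and Acadm. Their log2 ratio SDs to Acadm were 0.38 and 0.36, against 0.76 and 0.86 to Hadh. To Cpt1b they were 0.37 and 0.42, and to Acadl 0.33 and 0.45. For the subunit Cox6a2 the values were 0.28 to Cpt1b, 0.52 to Acadl, 0.66 to Acadm and 0.60 to Hadh. Of 11 genes of glucose use, 8 were on the array and 3 had an SD under 0.5. Pgk1 (SD 0.24) had a log2 ratio SD of 0.24 to Hadh and 0.81 to Acadm. The glucose transporter Slc2a1 (SD 0.37) had 0.41 to Hadh and 0.73 to Acadm. Such an SD depends on the spread of both genes, so genes of small spread tend to lie nearer to Hadh than to Acadm. By r, Slc2a1 stood at 0.24 with Hadh and 0.66 with Acadm, and Pgk1 at 0.60 and 0.57. Ldha, the muscle-type lactate dehydrogenase chain, had an SD of 0.75 and was highest on replicate 6, with a log2 ratio SD of 1.52 to Acadm. The insulin receptor gene Insr (SD 0.73) cleared its noise bound on 4 of 6 arrays.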

How the data were processed

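The measurements were 1 intensity per probe for 223 probes on 6 arrays of reloaded soleus. The deposited intensities are linear and go below 0, so the authors had subtracted some background. How the arrays were scanned, corrected and normalized is not given in the sources used here. Probes were named from the platform annotation. Probes above 0 on all arrays were kept, log2-transformed with no pseudocount and centred on each array's median. There was 1 group, so no condition was compared. Pearson's r and Spearman's rho were tested by exact two-sided permutation over all 720 pairings and adjusted by Benjamini-Hochberg over all pairs of named genes. An adjustment over the 15 pairs alone was planned and is not given, because the genes, lists and rules were chosen with earlier results of these data known. The rule for named genes was the 6 genes, their 3 nearest genes each, and in each list the 2 genes of smallest and the 2 of largest SD. The pair test was checked on simulated data, where some genes shared a pattern and the others varied independently with 1 common SD. No effect shared by a whole array was simulated, so the check does not cover such effects in these data. The alternatives were quantile normalization, deposited units, 28S scaling, a filter at the noise bound, the bound added before log2, and leaving out replicates. The number of arrays limits the precision. Python 3.11.15, numpy 2.4.6, pandas 2.3.3, scipy 1.17.1 and matplotlib 3.10.9 were used.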

Additional observations from a re-analysis of the deposited data

Results flagged for a closer look

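In 22 sets of 6 values (6 levels, 15 log2 ratios and the summed intensity), 7 held a sample whose gap to the nearest other exceeded 0.625 of the whole range. Chance marks about 1 in 20 sets, or 1.10 of 22, and the sets share genes and arrays, so they are not independent. The share of such sets over all named genes and their pairs was not counted. The 7 are therefore not read as an excess particular to these genes. Replicate 6 was the lowest array for 46.9% of named genes and replicate 1 the highest for 29%. The summed intensity was set apart by replicate 1, with a gap of 0.82 of the range. The level of Ucp3 was set apart by its low value on replicate 5 (0.66). Acadm over Ucp3 (0.77), Acadm over Ppara (0.67) and Cpt1b over Ucp3 (0.65) were lowest on replicate 6, and Cpt1b over Acadm (0.67) was highest there. Ppara over Ucp3 was lowest on replicate 3 (0.65). On replicate 6 Acadm was 2.00 times the noise bound, and on replicate 3 Ppara was 3.58 times it. Their part in these gaps was not tested.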

How the results depend on the processing

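There were 62 results computed under 12 alternatives, 728 values in all. Of these, 600 were counted as kept, 60 moved, 36 reversed, 26 were weaker and 6 stronger. The cause of the changes was not tested. An r counted as kept if its sign and its side of the adjusted threshold held, whatever its size. For example, Cpt1b with Ucp3 went from 0.41 to 0.97 in deposited units. Ratio SDs and nearest genes cannot change in deposited units or under 28S scaling. The 600 therefore do not measure stability. In deposited units the median SD of the 6 genes was 1.20. There 10 of the 15 pairs and 42.8% of all gene pairs had an unadjusted exact permutation p under 0.05. Values of r with Hadh turned to 0.95 for Cpt1b, 0.89 for Acadm, 0.86 for Ppara and 0.93 for Ucp3. Scaled to 28S the median SD was 0.97 and those r were 0.93, 0.81, 0.76 and 0.88. On that scale 12 of the 15 pairs and 35.9% of all gene pairs had an unadjusted exact permutation p under 0.05. After adjustment 2 of 15 pairs passed (Cpt1b with Acadl, adjusted exact permutation p = 0.0455, and with Ucp3, 0.0478). The share of all gene pairs that passed on that scale was not counted. Acadl with Hadh turned to -0.083 after quantile normalization, -0.034 with the noise bound filter and -0.059 with the bound added. Without replicates 1 and 6, an alternative chosen after seeing the data, r was 0.19 for Cpt1b with Hadh, -0.30 for Cpt1b with Ppara, -0.59 for Acadl with Ppara, -0.029 for Acadm with Ppara, 0.11 for Hadh with Ucp3 and -0.34 for Ppara with Ucp3. Leaving out single arrays moved r between -0.63 and 0.28 for Cpt1b with Hadh, -0.52 and 0.60 for Cpt1b with Ppara, -0.70 and 0.39 for Acadl with Hadh, -0.69 and 0.67 for Acadl with Ppara, -0.51 and 0.12 for Acadm with Hadh, -0.44 and 0.54 for Acadm with Ppara, -0.033 and 0.78 for Acadm with Ucp3, -0.88 and 0.78 for Hadh with Ucp3, and -0.46 and 0.75 for Ppara with Ucp3. It kept the median SD between 0.34 and 0.43, that of the ratios between 0.40 and 0.64, and the pairs passing at 0. Between 0 and 3 of the 3 nearest genes were shared under the alternatives for Acadm, Cpt1b and Ucp3, and between 1 and 3 for Acadl, Hadh and Ppara. No paired analysis was possible because there was 1 group. Signal close to the noise bound limits Acadm on replicate 6 and Ppara on replicate 3 most.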
